A study of Rattus norvegicus with 6 samples.

Results

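The 6 genes described here encode the ligands and receptors that drive the formation of osteoclasts, the cells that resorb bone and calcified cartilage. They were Tnfsf11, Tnfrsf11a, Tnfrsf11b, Csf1, Csf1r and Il34, and each was found as 1 protein-coding gene among 44746 genes of the expression table by an exact match of its symbol. Where a symbol stood on several lines, the protein-coding gene with the highest mean level was taken. RNA was sequenced after removal of ribosomal RNA from condylar cartilage, the cartilage of the jaw joint, of female Sprague-Dawley rats aged 6 weeks at the start. The UAC group (3 libraries) wore a unilateral anterior crossbite, a dental appliance that loads the jaw joint abnormally and is used as a model of temporomandibular joint osteoarthritis, and the CON group (3 libraries) consisted of control rats. Both groups were killed 8 weeks later, no genetic change is named for either, and the sources used here do not say how many rats went into a library.

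RANKL, encoded by Tnfsf11, is a cytokine made by osteoblasts, osteocytes and hypertrophic chondrocytes. It binds RANK, encoded by Tnfrsf11a, on osteoclast precursors, whereas osteoprotegerin, encoded by Tnfrsf11b, is a secreted decoy receptor that captures RANKL before it reaches RANK. M-CSF, encoded by Csf1, and interleukin 34, encoded by Il34, are unrelated in sequence but bind the same receptor on cells of the monocyte lineage, which is encoded by Csf1r and keeps osteoclast precursors alive. The balance between RANKL and osteoprotegerin is commonly read as a measure of the drive towards bone resorption, in subchondral bone as elsewhere.

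Levels are given in FPKM, fragments scaled to transcript length and sequencing depth, which can be set side by side between genes. Differences between groups are log2 fold changes of UAC over CON from edgeR's quasi-likelihood test on estimated counts, fitted over the 30668 genes with a mean level of at least 0.1 FPKM, with p values adjusted over all of them. Count totals were 71524713 to 86523541 in UAC (median 72202281) and 80960444 to 85923949 in CON (median 84723826). UAC replicate 1 stood apart, with correlations of 0.891 to 0.897 to the other libraries, and it had the highest sum of muscle markers. The sums were 333, 41.6 and 36.6 FPKM in the UAC libraries and 126, 211 and 97.2 FPKM in the CON libraries. Not every marker was highest in UAC replicate 1. Mb was at 47.2 FPKM there and at 59.6 FPKM in CON replicate 2. Tnnt1 was at its lowest there, at 0.432 FPKM, and Myh7, at 0.997 FPKM, was below every CON library. Chondrocyte markers were present in all libraries, with Col2a1, the main cartilage collagen, at 1014, 1972 and 1358 FPKM in UAC and 1909, 1182 and 1252 FPKM in CON. Bone RNA was present as well, with Bglap, which encodes the osteoblast product osteocalcin and was chosen after its values were seen, at 1361, 1013 and 1321 FPKM in UAC and 1146, 1403 and 1357 FPKM in CON. In such tissue RNA, fewer cells of a type and less RNA per cell cannot be told apart.

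None of the 6 genes differed between UAC and CON at an adjusted p under 0.05, where 0.0196% of all tested genes (6 of 30668) passed. All 6 were among the genes tested. At an unadjusted p under 0.05 only Csf1r was reached, at a lower level in UAC, against 9.08% of all tested genes in either direction and 4.39% in that direction. At the thresholds of the study, an unadjusted p under 0.05 with an absolute log2 fold change above 1, 1.88% of all genes passed and 0 of the 6.

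**Figure D1:**
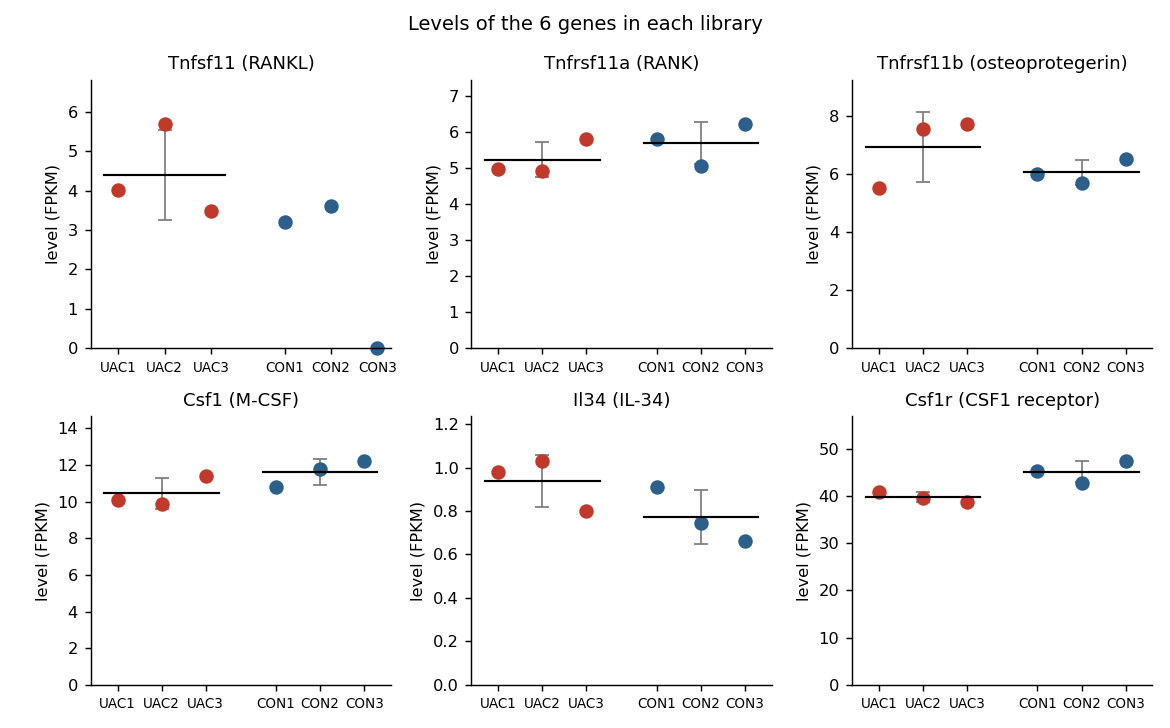
Level in FPKM (y axis, from 0) of each of the 6 genes in each UAC library (red) and CON library (blue). Black lines are group means and grey bars 1 SD (n = 3 each), left out for Tnfsf11 in CON, where replicate 3 is listed at 0. Every UAC point lies below every CON point for Csf1r, whereas the groups overlap for the other genes.

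The ligand Tnfsf11 lies on chromosome 15 from 60482527 to 60512704 on the minus strand, in the coordinates of the deposited table, whose genome build is not given in the sources used here. It was at 4.01, 5.68 and 3.49 FPKM in UAC replicates 1 to 3, against 3.19 and 3.62 FPKM in CON replicates 1 and 2, and CON replicate 3 was listed at 0. The estimated counts behind these levels were 305, 515 and 263 in UAC, against 289, 310 and 0 in CON. Apart from CON replicate 3 the groups overlapped, with UAC replicate 3 between the other CON libraries.

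The listing at 0 was not specific to this gene. Of 11354 protein-coding genes with at least 200 counts in 5 or more libraries, 16 (0.141%) were listed at 0 in the remaining library. Of these 16, 5 were listed at 0 in CON replicate 3, and both numbers include Tnfsf11. Others, chosen after their values were seen, were Wbp11, a gene of RNA splicing at 0 in UAC replicate 1, and Cetn3, a centrosome gene at 0 in CON replicate 1. Whether the 0 of Tnfsf11 in CON replicate 3 is a failed estimate was not tested, and it is given only as listed at 0. For Tnfsf11 edgeR gave a log2 fold change of 0.89 (standard error 1.26, 95% interval -2.10 to 3.88, adjusted p = 0.872). Without CON replicate 3 it was 0.31 (standard error 0.27, 95% interval -0.37 to 0.98, adjusted p = 0.809), so that single library carried most of the fitted difference.

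The receptor Tnfrsf11a (chromosome 13, 25778317 to 25835964, plus strand) was at 4.97, 4.91 and 5.79 FPKM in UAC, against 5.79, 5.05 and 6.20 FPKM in CON. The groups overlapped, since UAC replicate 3 stood above CON replicate 2. The mean was 5.23 ± 0.492 FPKM in UAC and 5.68 ± 0.582 FPKM in CON (SD, n = 3 each), and edgeR put the log2 fold change at -0.16 (standard error 0.11, 95% interval -0.42 to 0.10, adjusted p = 0.687).

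The decoy receptor Tnfrsf11b (chromosome 7, 93798545 to 93826665, minus strand) was at 5.51, 7.54 and 7.70 FPKM in UAC, against 5.97, 5.67 and 6.50 FPKM in CON. UAC replicate 1 was the lowest of all libraries, and UAC replicates 2 and 3 were the highest. The mean was 6.92 ± 1.22 FPKM in UAC and 6.05 ± 0.420 FPKM in CON (SD, n = 3 each), and edgeR put the log2 fold change at 0.16 (standard error 0.16, 95% interval -0.22 to 0.53, adjusted p = 0.799). Without UAC replicate 1, the library with the highest sum of muscle markers, the log2 fold change was 0.31 with an unadjusted p of 0.00965 and an adjusted p of 0.390.

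A further assembled transcript of 4433 bases lies within an intron of Tnfrsf11b on the opposite strand (chromosome 7, 93822000 to 93826432). It was at 1.30, 1.59 and 2.43 FPKM in UAC, against 1.63, 1.52 and 1.87 FPKM in CON. Its groups overlapped, with the lowest and the highest library both in UAC. Whether the counting used strand is not stated, so reads from the gene and from this transcript cannot be told apart where they overlap. With both counted together the log2 fold change of Tnfrsf11b was 0.13 (adjusted p = 0.863 from edgeR).

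The ratio of Tnfsf11 to Tnfrsf11b in FPKM, a transcript measure of RANKL over osteoprotegerin, was 0.727, 0.753 and 0.454 in UAC replicates 1 to 3, against 0.535 and 0.639 in CON replicates 1 and 2. In CON replicate 3, where Tnfsf11 was listed at 0, the ratio is not known if that 0 is a failed estimate, and a floor of 3 counts for Tnfsf11, which covers counting error only, would give 0.00517. RANKL thus stood below osteoprotegerin per length in the other 5 libraries. UAC replicates 1 and 2 were above CON replicates 1 and 2, whereas UAC replicate 3 was below both. With the floor in place, the mean log2 ratio was 2.38 higher in UAC than in CON, with a two-sided exact permutation p of 0.5 (0.5 adjusted over the 2 ratios tested). With 3 libraries against 3, no p under 0.1 can be reached in this test. Without CON replicate 3 the difference was 0.10 on the log2 scale.

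**Figure D2:**
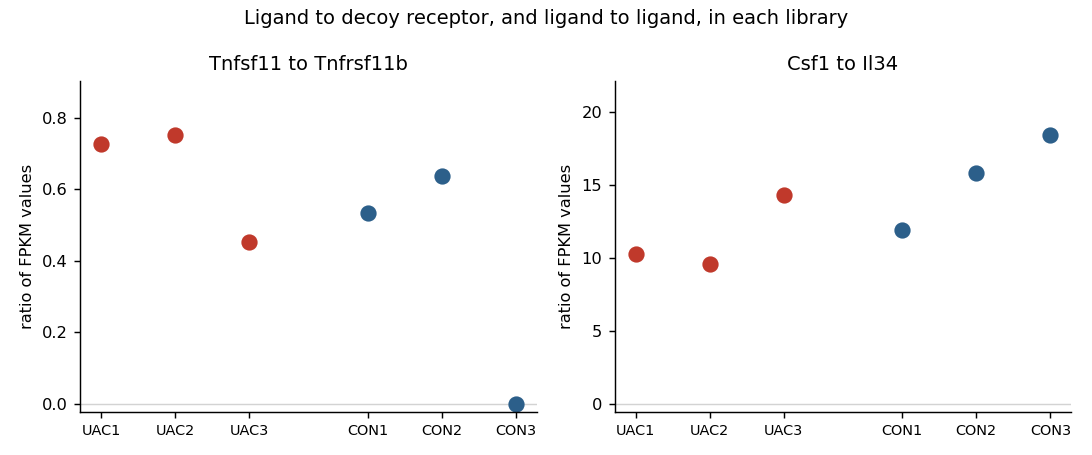
Ratio of FPKM values (y axis) of Tnfsf11 to Tnfrsf11b (left) and of Csf1 to Il34 (right) in each UAC library (red) and CON library (blue). The Tnfsf11 to Tnfrsf11b ratio lies between 0.454 and 0.753 in UAC and at 0.535, 0.639 and a listed 0 in CON, and the Csf1 to Il34 ratio overlaps between the groups.

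Of the ligands for the receptor of Csf1r, Csf1 was the more abundant. Csf1 (chromosome 2, 210522375 to 210550560, minus strand) was at 10.1, 9.85 and 11.4 FPKM in UAC, against 10.8, 11.8 and 12.2 FPKM in CON. UAC replicates 1 and 2 were below every CON library, whereas UAC replicate 3 was above CON replicate 1. The mean was 10.5 ± 0.841 FPKM in UAC and 11.6 ± 0.708 FPKM in CON (SD, n = 3 each), and edgeR put the log2 fold change at -0.19 (standard error 0.09, 95% interval -0.41 to 0.02, adjusted p = 0.570). Without UAC replicate 3 it was -0.26, with an unadjusted p of 0.0248 and an adjusted p of 0.505.

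Il34 (chromosome 19, 40855433 to 40904121, plus strand) was the least abundant of the 6 genes over the libraries as a whole. It was at 0.981, 1.03 and 0.801 FPKM in UAC, against 0.910, 0.744 and 0.664 FPKM in CON, from 109 to 171 estimated counts per library. UAC replicates 1 and 2 were above every CON library, and UAC replicate 3 was below CON replicate 1. In edgeR the log2 fold change was 0.23 (standard error 0.23, 95% interval -0.32 to 0.78, adjusted p = 0.799), so a change inside that interval could not be told from none with these libraries. A short assembled gene on the opposite strand inside Il34 had 0 to 7 counts per library.

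The ratio of Csf1 to Il34 was 10.3, 9.57 and 14.3 in UAC, against 11.9, 15.8 and 18.4 in CON. M-CSF transcripts exceeded interleukin 34 transcripts per length at least 9.57-fold in every library. The mean log2 ratio was -0.43 in UAC relative to CON, with a two-sided exact permutation p of 0.2 (0.4 adjusted over the 2 ratios).

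Csf1r (chromosome 18, 56414488 to 56458300, plus strand, 5 transcripts) was the most abundant of the 6 and the only one whose groups did not overlap. It was at 40.9, 39.6 and 38.8 FPKM in UAC, against 45.3, 42.9 and 47.4 FPKM in CON. Every UAC library was below every CON library, as held for 5.87% of all genes tested. The mean was 39.8 ± 1.03 FPKM in UAC and 45.2 ± 2.26 FPKM in CON (SD, n = 3 each). The log2 fold change was -0.23 (standard error 0.07, 95% interval -0.39 to -0.06), and edgeR gave an unadjusted p of 0.0145 and an adjusted p of 0.494. The difference therefore did not pass the threshold over all genes. The unadjusted p was under 0.05 in 16 of 17 alternative settings, the exception being 0.0501 without CON replicate 3, and without UAC replicate 1 the log2 fold change was -0.22.

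**Figure D3:**
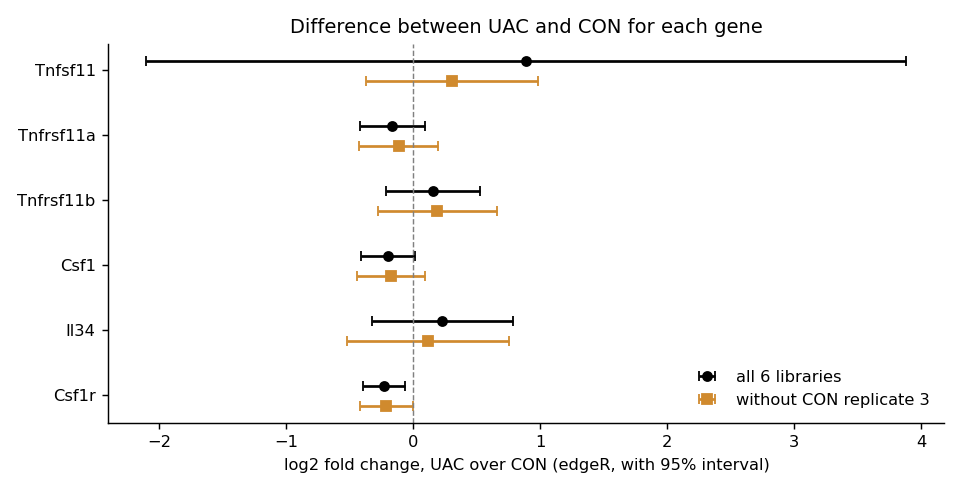
Log2 fold change of UAC over CON (x axis) with its 95% interval for each of the 6 genes, from edgeR with all 6 libraries (black circles) and without CON replicate 3 (orange squares). The interval of Tnfsf11 spans -2.10 to 3.88 with all libraries and -0.37 to 0.98 without CON replicate 3, and with all libraries only that of Csf1r, -0.39 to -0.06, lies on 1 side of 0.

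Within a library, Csf1r, Csf1 and Tnfrsf11b held places 1, 2 and 3 among the 6 genes by FPKM in all 6 libraries. In the 5 libraries other than CON replicate 3, Tnfrsf11a and Tnfsf11 stood in place 4 or 5 and Il34 in place 6, and in CON replicate 3 the listed 0 put Tnfsf11 in place 6. Tnfrsf11a and Tnfsf11 exchanged places in UAC replicate 2, where Tnfsf11 was at 5.68 and Tnfrsf11a at 4.91 FPKM, and Tnfrsf11b and Tnfrsf11a overlapped in their ranges over libraries, at 5.51 to 7.70 and 4.91 to 6.20 FPKM. Against the 15001 protein-coding genes tested, the mean level of Csf1r was at percentile 96.6, that of Csf1 at 85.1, that of Tnfrsf11b at 70.3, that of Tnfrsf11a at 63.4, that of Tnfsf11 at 45.0 and that of Il34 at 18.1. The spread within a group was smallest for Csf1r, with a coefficient of variation of 2.58% in UAC and 5.01% in CON. It was 17.6% in UAC and 6.94% in CON for Tnfrsf11b.

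Osteoclast genes downstream of the axis were examined next, from a list of 16 genes of resorption and cell fusion. At an unadjusted p under 0.05, 7 of these were lower in UAC and 1 was higher, and 0 of 16 passed at an adjusted p under 0.05, beside 4.39% of all tested genes lower and 4.69% higher at the unadjusted threshold. The median log2 fold change of the list was -0.28, beside 0.00 over all genes tested. The list has no test of its own, and the count of lower genes was 5 without CON replicate 3 or without CON replicate 2 and 7 without UAC replicate 1.

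Tcirg1, which encodes a subunit of the proton pump that acidifies the resorption pit, was at 14.9, 13.7 and 13.8 FPKM in UAC, against 17.7, 17.9 and 17.6 FPKM in CON. In edgeR this was a log2 fold change of -0.37 (standard error 0.07) with an adjusted p of 0.423. Clcn7, the chloride channel that works beside the pump, was at 6.80, 6.08 and 6.23 FPKM in UAC, against 7.33, 8.12 and 7.75 FPKM in CON. For both genes, and for the vesicle transport gene Plekhm1 with a log2 fold change of -0.27, every UAC library was below every CON library.

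Ctsk, which encodes the collagen-degrading protease cathepsin K and was the most abundant gene of the list, was at 961, 1002 and 1099 FPKM in UAC, against 1136, 1293 and 1380.2 FPKM in CON. Acp5, the gene of tartrate-resistant acid phosphatase, chosen after its values were seen, was at 677, 803 and 908 FPKM in UAC, against 1051, 1019 and 1205 FPKM in CON. All UAC libraries were below all CON libraries for both. In total 8 of the 16 genes showed this order, beside 5.87% of all genes tested. The summed level of the list was 2060.5, 2247 and 2491 FPKM in UAC, against 2675, 2814 and 3134 FPKM in CON. Ctsk and Acp5 made up most of this sum, which therefore adds little to their own values.

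Other genes of the list, chosen after their values were seen, went differently. Calcr, the calcitonin receptor gene of mature osteoclasts, was at 1.48, 2.33 and 1.94 FPKM in UAC, against 0.740, 1.01 and 1.17 FPKM in CON, a difference of 0.94 on the log2 scale (standard error 0.25) with an adjusted p of 0.465 in edgeR. Every UAC library was above every CON library for Calcr, as held for 9.84% of all genes tested. Dcstamp, needed for the fusion of osteoclast precursors, was at 5.42, 6.22 and 6.81 FPKM in UAC, against 6.25 and 7.03 FPKM in CON replicates 1 and 2 and 0.944 FPKM in CON replicate 3, the library in which Tnfsf11 was listed at 0.

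Signal transduction genes below RANK and the receptor of Csf1r were read from the same fit. Of 35 genes of a list of adaptors, kinases and transcription factors, 1 had an unadjusted p under 0.05 and was higher in UAC, 0 were lower, beside 4.69% and 4.39% of all tested genes, 0 passed at an adjusted p under 0.05, and the median log2 fold change was -0.02. The count of higher genes was 0 without UAC replicate 1 or 2 and without CON replicate 1 or 2, and 2 without UAC replicate 3. The gene that was higher was Spi1, which encodes the myeloid transcription factor PU.1, an activator of Csf1r and Tnfrsf11a transcription. It was at 17.8, 16.4 and 14.8 FPKM in UAC, against 12.5, 13.3 and 14.4 FPKM in CON, a difference of 0.24 on the log2 scale (standard error 0.09) with an adjusted p of 0.536 in edgeR. Every UAC library was above every CON library, the order opposite to that of Csf1r.

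Traf6, the adaptor that binds RANK, was at 7.10, 6.94 and 6.70 FPKM in UAC, against 5.95, 5.88 and 7.16 FPKM in CON. Nfatc1, the transcription factor that RANK signaling induces, was at 6.17, 5.70 and 5.96 FPKM in UAC, against 6.06, 6.52 and 6.11 FPKM in CON. Both were chosen after their values were seen, and their groups overlapped. Fos, which osteoclast formation requires, was at 3.93, 7.33 and 3.13 FPKM in UAC, against 4.76, 10.3 and 10.2 FPKM in CON, with a range within CON wider than the difference between the group means (adjusted p = 0.588 from edgeR). Tyrobp, the adaptor DAP12 and the most abundant gene of the list, was at 64.9, 62.0 and 75.5 FPKM in UAC, against 61.1, 70.2 and 67.6 FPKM in CON.

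Further genes whose products bind members of the axis numbered 4, with a median log2 fold change of -0.07. At an unadjusted p under 0.05, 1 of the 4 was lower in UAC, beside 4.39% of all tested genes. That count was 0 without UAC replicate 1 and without CON replicate 2 or 3. The gene that was lower was Sdc1, which encodes the cell surface proteoglycan syndecan 1, a binding partner of osteoprotegerin. It was at 23.7, 26.4 and 25.9 FPKM in UAC, against 27.0, 30.1 and 29.1 FPKM in CON (adjusted p = 0.550 from edgeR). Lgr4, a further receptor for RANKL, was at 3.70, 3.69 and 3.94 FPKM in UAC, against 3.97, 4.16 and 4.23 FPKM in CON (adjusted p = 0.566 from edgeR). Every UAC library was below every CON library for Sdc1 and Lgr4, 2 of the 4 genes, beside 5.87% of all genes tested. Tnfsf10, the death ligand TRAIL that osteoprotegerin also captures, was at 1.07, 1.01 and 0.713 FPKM in UAC, against 0.811, 0.654 and 0.725 FPKM in CON. Its log2 fold change was 0.31. That of Ptprz1, the remaining gene of the list, chosen after its values were seen, was 0.03. The groups overlapped for Tnfsf10 and Ptprz1.

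Of 32 genes that regulate Tnfsf11 or Tnfrsf11b in bone cells, 26 were tested. At an unadjusted p under 0.05, 2 were higher and 2 lower, beside 4.69% and 4.39% of all tested genes. At an adjusted p under 0.05, 0 passed, and the median log2 fold change was -0.07, or -0.01 without UAC replicate 1. The count of higher genes was 0 without UAC replicate 2 and without any 1 of the CON libraries, 1 with UAC replicate 1 left out and 3 with UAC replicate 3 left out, and that of lower genes was 0 without CON replicate 1 or 2 and 1 without UAC replicate 1 or 2. The lower genes were Sp7, the osteoblast transcription factor osterix, with a log2 fold change of -0.37 and Sema3a, a secreted semaphorin that restrains osteoclast formation, with -0.43 (adjusted p = 0.513 and 0.530 from edgeR). The higher genes were Ptger4, a prostaglandin E2 receptor through which RANKL is induced, with 0.36 and Il6r, the interleukin 6 receptor, chosen after its values were seen, with 0.40 (adjusted p = 0.539 and 0.547 from edgeR). Among inducers of RANKL, chosen after their values were seen, Il17a was listed at 0 in all 6 libraries and Il6 in all but CON replicate 1, and Tnf was at 0.125, 0.245 and 0.264 FPKM in UAC, against 0.143, 0.364 and 0.166 FPKM in CON.

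**Figure D4:**
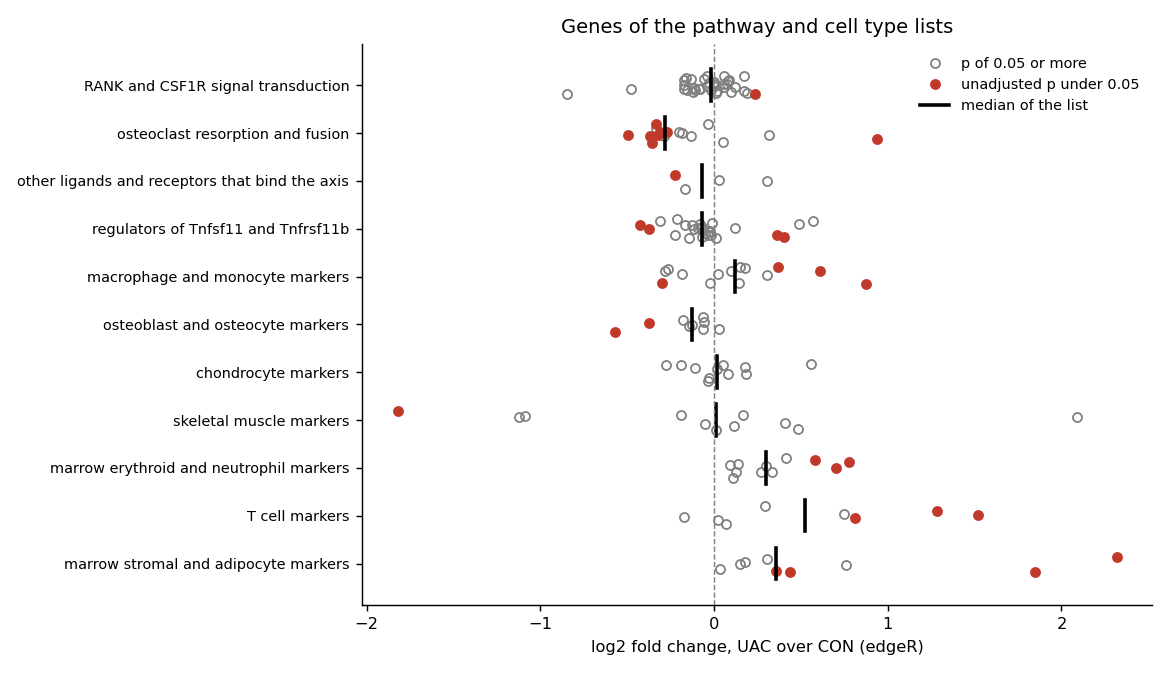
Log2 fold change of UAC over CON (x axis) for each tested gene of the 11 lists of pathway genes and cell type markers. Filled red points have an unadjusted p under 0.05 from edgeR, open grey points do not, and black bars are the medians of the lists, which is -0.28 for the osteoclast list and -0.02 for signal transduction.

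Markers of the cells that could carry the 6 genes pointed in different directions. Of 14 tested markers of macrophages and monocytes, the other cells that use Csf1r, 3 with an unadjusted p under 0.05 were higher in UAC and 1 was lower, beside 4.69% and 4.39% of all tested genes. The median log2 fold change of the list was 0.12. The count of higher genes was 2 without UAC replicate 2 or any 1 of the CON libraries and 4 without UAC replicate 3, and that of lower genes was 0 without UAC replicate 2 or CON replicate 3. Lyz2, the lysozyme gene of myeloid cells, was at 1512, 986 and 1197 FPKM in UAC, against 777, 687 and 881 FPKM in CON, and Ly86, which encodes the surface protein MD-1, was at 3.66, 2.97 and 2.52 FPKM in UAC, against 1.54, 1.43 and 1.86 FPKM in CON. Cd68, which osteoclasts express as well, was at 91.9, 76.0 and 96.5 FPKM in UAC, against 99.6, 101 and 116 FPKM in CON. The summed macrophage and monocyte markers were at 1710.0, 1165 and 1395 FPKM in UAC, against 968, 887 and 1100.1 FPKM in CON. Lyz2 made up most of this sum, so its direction is that of Lyz2 and not of the list. Cd68, the next most abundant marker, was lower in UAC. Of the 14 tested markers, 9 had a positive and 5 a negative log2 fold change. None of these markers passed at an adjusted p under 0.05. The part of osteoclasts and of other myeloid cells in the level of Csf1r was not tested.

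**Figure D5:**
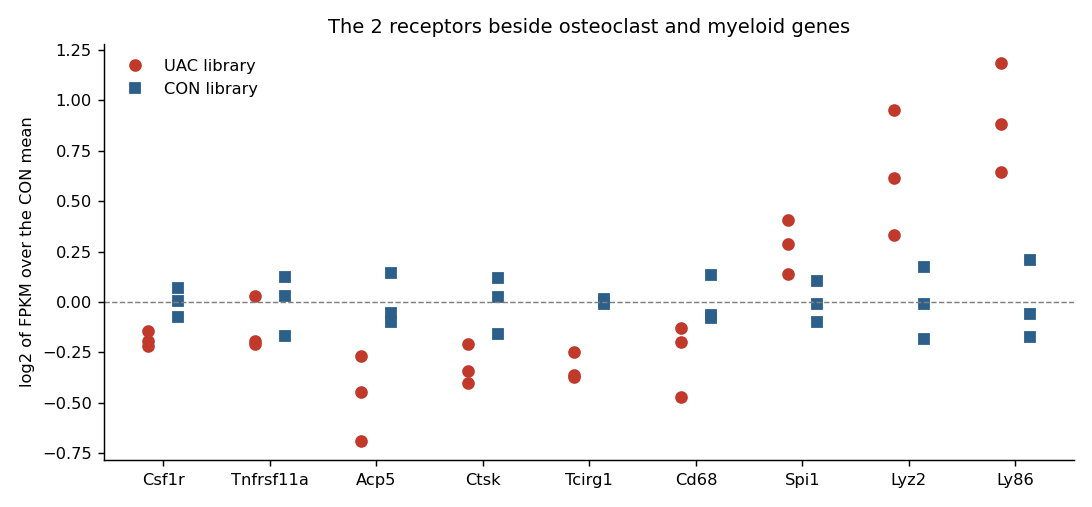
Log2 of the FPKM of each library over the mean of the CON libraries (y axis) for Csf1r and Tnfrsf11a beside genes of osteoclasts (Acp5, Ctsk, Tcirg1) and of myeloid cells (Cd68, Spi1, Lyz2, Ly86), with UAC libraries as red circles and CON libraries as blue squares. Csf1r, Acp5, Ctsk, Tcirg1 and Cd68 are lower in every UAC library than in every CON library, whereas Spi1, Lyz2 and Ly86 are higher in every UAC library.

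Among cells that make the ligands, 2 of 9 osteoblast and osteocyte markers had an unadjusted p under 0.05, both lower in UAC, beside 4.39% of all tested genes. The median of this list was -0.13, and 1 of 9 was lower without UAC replicate 1 or 2 or without CON replicate 1 or 2. The 2 lower genes were Sp7 and Ibsp, which encodes bone sialoprotein. Ibsp was at 369, 353 and 380 FPKM in UAC against 527, 517 and 545 FPKM in CON (adjusted p = 0.328 from edgeR). Of 11 chondrocyte markers 0 were higher or lower, with a median of 0.02 with all libraries and 0.20 without UAC replicate 1, which had the lowest summed level of these markers (1623, 3225 and 2373 FPKM in UAC, against 3088, 2049 and 2107 FPKM in CON). Of 9 markers of marrow stroma and adipocytes, cells that make RANKL and M-CSF in marrow, 4 were higher and 0 lower, with a median of 0.36. Of 11 markers of marrow erythroid cells and neutrophils 3 were higher, with a median of 0.30 with all libraries and 0.20 without UAC replicate 1, and of 8 T cell markers 3 were higher, with a median of 0.52. Beside these counts 4.69% of all tested genes were higher, and under the alternatives they ranged from 2 to 5 and from 1 to 4. The lowest count was 2 without UAC replicate 1 in both lists when single libraries were left out, also without UAC replicate 2 or CON replicate 2 for T cells, and the highest was 5 without CON replicate 1 for the marrow list. Of 11 muscle markers 0 were higher and 1 was lower, with a median of 0.01 with all libraries and -1.65 without UAC replicate 1. The gene with the smallest p was Adipoq for marrow stroma and adipocytes, Camp for marrow erythroid cells and neutrophils, and Cd3g for T cells. Their log2 fold changes were 2.32, 0.78 and 1.52 (adjusted p = 0.287, 0.423 and 0.478 from edgeR). No gene of these lists passed at an adjusted p under 0.05, and what these markers contribute to the levels of Tnfsf11, Tnfrsf11b and Csf1 was not tested.

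For each of the 6 genes, the 2 most similar profiles were sought by Pearson's r over the 6 libraries among 12028 protein-coding genes with a mean of at least 1 FPKM. With 6 points and so many candidates, high values arise readily, and the libraries share their depth and group. Csf1r was most like Ddx27 (r = 0.993) and Epb41l3 (r = 0.991), and Csf1 was most like Slc30a4 (r = 0.992) and Pcdh18 (r = 0.986). Tnfrsf11b was most like Stt3a (r = 0.994) and Cltc (r = 0.992), Tnfrsf11a was most like AABR07002870 (r = 0.991) and Mettl14 (r = 0.990), and Il34 was most like Dsg3 (r = 0.988) and Dcaf7 (r = 0.981). Tnfsf11 was most like Spata2 (r = 0.998) and LOC100360413 (r = 0.997), and both were low in CON replicate 3, with LOC100360413 at 181, 228 and 201 FPKM in UAC, against 172, 172 and 8.34 FPKM in CON.

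Other transcripts of these loci were few. Of 7294 circRNAs, 1 had a host gene among the 6, an intronic circRNA of Csf1 (chromosome 2, 210536772 to 210547032) with 1 junction read in UAC replicate 1 and 0 in every other UAC library and in all CON libraries. An assembled fragment of 539 bases that carries the symbol Csf1 and lies 373 bases from the gene was at 1.82, 1.12 and 1.04 FPKM in UAC, against 1.18, 0.650 and 1.12 FPKM in CON. With all lines of a symbol counted together, the log2 fold change of Csf1 was -0.19 (adjusted p = 0.573 from edgeR).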

How the data were processed

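Condylar cartilage RNA of 3 UAC and 3 CON libraries was compared, grouped by the sample titles. Per the authors, reads went through cutadapt (1.9 in the submitters' notes) and FastQC, were aligned by Bowtie2 and Hisat2, and were assembled by StringTie, with edgeR for the tests; the genome build is not given in the sources used here. In the deposited gene table are FPKM, with absent genes listed at 0.0001, and estimated counts. In single-transcript genes these deposited estimated counts equalled the authors' mean coverage times transcript length over 75, rounded up, in 100% of 10321 to 10387 genes per library, so 1 count is not 1 sequenced read. The deposited lncRNA table gives FPKM and coverage signal per transcript, and the deposited circRNA table gives counts of junction reads and a scaled signal that was not used.

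Estimated counts of the 30668 genes with a mean of at least 0.1 FPKM were fitted with edgeR 4.0.16 (R 4.3.3, TMM factors, quasi-likelihood test, Benjamini-Hochberg adjustment, threshold 0.05). The floor of 3 counts covers counting error only. Ratios were taken on FPKM, and a library at 0 took the floor, since the log2 ratio planned without it could not be formed. P values measure the spread between these libraries, which may be technical.

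The 6 genes and the lists were chosen with earlier results of these data known. Genes to be named were the 6, the 2 most similar profiles of each (log2 of FPKM plus 0.1), and genes of each list. In a list these were up to 3 genes with the smallest p and the most abundant one, and not all of them are named here. Other named genes are marked as chosen after their values were seen. Alternatives were other filters, size factors, DESeq2 1.42.0, a robust fit, limma 3.58.1 on log2 FPKM, a replicate block, summed lines of a symbol, each library left out and, added after seeing the data, halved counts. The edgeR, DESeq2 and limma steps were tested on simulated counts, with changes larger than edgeR gave for any of the 6 genes. The ratios, the floor and a library listed at 0 were not simulated.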

Additional observations from a re-analysis of the deposited data

How the results depend on the processing

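The log2 fold changes of the 6 genes kept their sign in all 101 fits under the alternatives, and 0 of the 6 genes passed an adjusted p under 0.05 in any of them. DESeq2 called 358 genes over the whole table, against 6 with edgeR, and a minimum mean of 1 FPKM left 2 called genes. Il34 could not be tested at that minimum. The value of Tnfsf11 ranged from 0.31 (without CON replicate 3) to 2.04 (limma on log2 of FPKM plus 0.1), and that of Csf1r from -0.24 to -0.18. Same-numbered UAC and CON libraries did not deviate together (r of -0.02, -0.01 and -0.03). Whether a shared number also marks a shared harvest or processing round is not stated, and so few libraries cannot settle it. With the replicate block 0 genes were called in the whole table, and the log2 fold change was -0.23 for Csf1r, with an edgeR adjusted p of 0.691, and 1.77 for Tnfsf11. Leaving out each library in turn gave 0.07 to 0.31 for Tnfrsf11b, -0.24 to -0.11 for Tnfrsf11a, -0.26 to -0.15 for Csf1 and 0.12 to 0.37 for Il34. The count of osteoclast genes lower at an unadjusted p under 0.05 ranged from 4 to 8, and that of muscle genes from 1 to 8, with 8 without UAC replicate 1. Counts of list genes under alternatives stayed within 1.5 times in 325 cases and moved further in 49. With the counts halved the log2 fold change of Il34, the gene with the fewest counts outside the listed 0, was 0.24 (standard error 0.24), against 0.23 (standard error 0.23) with the full counts.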
